A study of Homo sapiens with 15 samples.

Results

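MT-2 cell arrays with different date tags were compared by setting the 5 arrays of experiment 1 against the 10 of experiments 2 and 3. Together these make up all 15 arrays of the series. The members were chosen by the title tags alone: the tags of experiments 2 and 3 share a date and differ by a letter, and experiment 1 carries another date. MT-2 is an established CD4+ T-cell line transformed by the retrovirus HTLV-1. Each experiment held 1 array of each of 5 cultures, all taken at 48 hours: untreated, low-dose (10 µg/ml), intermediate-dose (50 µg/ml) and high-dose (100 µg/ml) ascorbic acid (AA), and IFN-α at 1000 IU/ml. Affymetrix Human Gene 1.0 ST arrays gave log2 values per transcript cluster, the group of probes that reports on one gene or transcript, so that a difference of 1 is a 2-fold change.

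The comparison addressed which transcripts set experiment 1 apart from the others, on average over the treatments. Treatment entered the model as a covariate, and experiment 1 minus experiments 2 and 3 is the sign used for every difference. The date and the experiment cannot be told apart, since one date holds a single experiment, and neither can cell culture, RNA extraction and hybridization, for which no separate labels were used here. The tags do not say which of these steps they date, nor whether experiments 2 and 3 were separate cultures. The p-values measure only the spread between these arrays, which may share cultures and may be technical. Over the 3 experiments themselves an exact permutation test cannot go below p = 0.333.

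Cultured T cells draw on several pathways that respond to medium, density and oxygen. When sterols run short, SREBP transcription factors switch on the enzymes of cholesterol and fatty acid synthesis. When oxygen is low, prolyl hydroxylases, which use oxygen, iron and ascorbate, no longer mark HIF proteins for destruction, and HIF target genes rise. The p53 protein, which in HTLV-1-transformed cells is often held in check by the viral Tax protein, drives genes of cell cycle arrest and DNA repair after damage.

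The array values were of even quality apart from one array. Mean correlation with the other arrays lay between 0.991 and 0.995 for 14 arrays and was 0.976 for the high-dose AA array of experiment 3, whose SD over clusters was 2.02 against 2.12 to 2.18 elsewhere. Where leaving it out moved the count of a list described here by over 1.5 times, that count is given too. The fit without it called 8.14% of all clusters, against 4.46% with it. Defining markers of the line were present, with mean levels of 13.3 for IL2RA, 11.5 in experiment 1 for CCR4 and 10.9 in experiment 1 for CD4, whereas CD3D (5.64), CD3E (5.12), CD3G (5.26), CD28 (5.36) and CD5 (5.98) lay below the median cluster level of 6.76 in experiment 1. Of the lists of other cell types, 0 of 8 myeloid, 0 of 9 NK and cytotoxic, 0 of 6 epithelial, 0 of 7 fibroblast and 0 of 3 erythroid markers passed the test (1 of 7 fibroblast markers without the high-dose AA array of experiment 3), and 1 of 6 B-cell markers did, CD22. The mean level of the B-cell list ran from 6.51 to 6.72 in experiment 1 and from 6.36 to 6.60 in the other experiments, and CD79A, MS4A1 and PAX5 differed by no more than 0.07 in size.

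Between the dates, 1290 of 28926 clusters (4.46%) passed the limma test at an adjusted p under 0.05, 998 of them higher in experiment 1 (3.45%) and 292 lower (1.01%). Of these, 1066 carry a single gene symbol and name 1043 genes. The differences were modest in size: their median was 0.33 on the log2 scale, 212 exceeded 0.5 and 9 exceeded 1. For 1117 of the 1290 clusters, all 10 differences between an array of experiment 1 and the same treatment in experiment 2 or 3 had one sign. This is a description and no independent support, since the clusters were called from these same arrays. All 5 arrays of experiment 1 lay above all 10 others for 696 clusters (2.41%) and below them for 134 (0.463%).

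Without the high-dose AA array of experiment 3, 2355 clusters passed (8.14%), 1574 higher and 781 lower, and these held all 1290 called with it. With experiment as a random block, 837 passed, all among the 1290. The correlation estimated within a block was 0.04. It rests on the experiments that share a date tag, since the other tag holds a single experiment. The fit with the random block therefore cannot separate the date from a culture shared by the 5 arrays of an experiment.

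As a share of the total variance over all clusters, treatment accounted for 32.9%, the date for 15.3% on 1 degree of freedom, the difference between experiments 2 and 3 for 11.3% on 1 degree of freedom, and the residual for 40.5%, or 5.06% for each of its 8 degrees of freedom. Without the high-dose AA array of experiment 3 the date took 20.0% and experiments 2 and 3 differed by 9.25%. After each treatment mean was removed, the first principal component (46.1% of the variance) was set mainly by the high-dose AA arrays, at 49.8 for experiment 3 and -33.9 for experiment 1. The second component (18.1%) placed the 5 arrays of experiment 1 between 8.23 and 18.4, those of experiment 3 between -4.89 and 6.69 and those of experiment 2 between -18.0 and -6.53, so that the 3 experiments did not overlap along it.

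**Figure D1:**
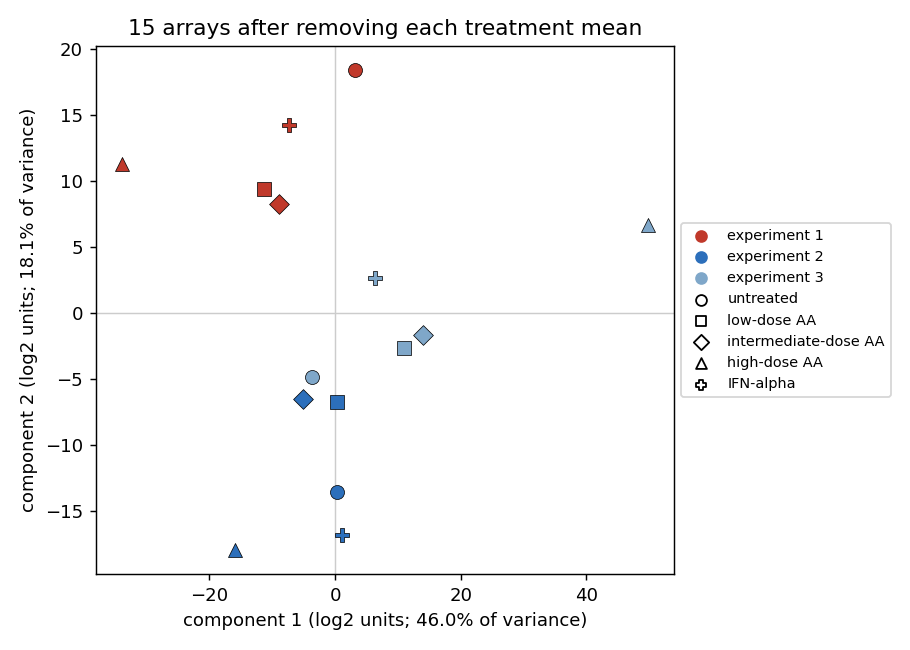
Each point is one of the 15 arrays after the mean of its treatment was removed; the axes are the first 2 principal components in log2 units, colour marks the experiment and shape the treatment. The 5 arrays of experiment 1 lie above 8 on component 2, and the high-dose AA array of experiment 3 stands alone at 49.8 on component 1.

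Genes were named by size among called clusters with 1 symbol and 10 of 10 matched differences of 1 sign. This choice favours groups that do not overlap, so such separation is a description and no independent support. The largest difference was in RNU4-1, which encodes the U4 small nuclear RNA of the spliceosome. In experiment 1 its levels were 9.21 in untreated cells, 10.01 with low-dose, 9.73 with intermediate-dose and 9.21 with high-dose AA, and 9.88 with IFN-α. In the 10 other arrays they ran from 7.13 over a median of 7.94 to 8.61. All 5 arrays of experiment 1 were above every other array, with a difference of 1.73 (SE 0.17, 3.31-fold, limma adjusted p = 0.000268). RMRP, the RNA of the mitochondrial RNA-processing ribonuclease, was 10.94, 11.02, 10.78, 10.42 and 11.04 in experiment 1, in the same order of treatments, against 9.57 to 10.29 with a median of 9.84. Its groups did not overlap either, and it was 0.93 higher (SE 0.08, adjusted p = 0.000143 by limma). RPPH1, the RNA of ribonuclease P, rose with it by 0.67 (limma adjusted p = 0.000857).

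Of 178 small nucleolar RNA clusters with a single symbol, 9 were higher (5.06%) and 3 lower (1.69%), shares near those of all clusters (3.45% and 1.01%). Of 37 small nuclear RNA clusters 1 was higher (2.7%) and 3 lower (8.11%). The 3 were clusters of the U1 variant genes RNVU1-1 and RNVU1-6, of which the pair for RNVU1-1 holds identical values. The snoRNAs of the SNORD116 cluster, repeated copies of one imprinted RNA family whose similar members can share probes and are uncertain one by one, moved apart: SNORD116-24 was 0.87 higher (adjusted p = 0.0272, limma), SNORD116-23 0.60 higher (adjusted p = 0.00797) and SNORD116-21 differed by -0.69 (adjusted p = 0.00552). Of 173 microRNA clusters, 2 were higher (MIR15A, 0.51, and MIR451A, 0.21; 1.16%) and 1 lower (MIR193A, -0.32; 0.578%), fewer in share than over all clusters.

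Among protein-coding genes the matrix protein periostin led. POSTN levels in experiment 1 were 8.34 untreated, 8.24 with low-dose, 8.34 with intermediate-dose and 8.70 with high-dose AA, and 8.11 with IFN-α, and the other 10 arrays lay between 6.70 and 7.36 with a median of 7.06. The groups did not overlap, and the difference was 1.31 (SE 0.11, 2.48-fold, limma adjusted p = 8.98e-05). DDR2, a collagen receptor kinase, was 7.47, 7.37, 7.45, 7.49 and 7.84 in experiment 1, in the order of treatments given, and 5.91 to 6.95 with a median of 6.66 elsewhere. It too was higher in every array of experiment 1, by 0.93 (SE 0.13, limma adjusted p = 0.00186).

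Immune receptors stood in the same group. GPR65, a proton-sensing receptor of lymphocytes, was 8.50, 8.20, 8.11, 8.20 and 8.66 in experiment 1 and 7.16 to 7.70 (median 7.36) elsewhere. Every array of experiment 1 was above the others, by 0.94 on average (SE 0.06, limma adjusted p = 5.96e-06), and the differences from experiment 2 (0.94) and from experiment 3 (0.94) were the same to 2 decimals. SLAMF6, a lymphocyte adhesion receptor, was 6.27, 6.40, 6.30, 6.47 and 6.54 in experiment 1 and stayed between 5.43 and 5.56 (median 5.48) in the other 10 arrays. The difference of 0.90 (SE 0.05, limma adjusted p = 5.96e-06) compares with an SD of 0.042 among those 10. CD22, an inhibitory receptor best known from B cells, was 8.04, 8.35, 8.08, 7.67 and 8.15 against 6.29 to 7.58 (median 7.30). It was 0.89 higher (SE 0.19, limma adjusted p = 0.0203), with differences of 0.62 from experiment 2 and 1.16 from experiment 3.

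Of the remaining genes named among the 12 largest higher differences, TFEC, a MiT-family transcription factor, differed by 1.03, NRN1, a small neurite-growth protein, by 0.95, ZNF140, a KRAB zinc-finger repressor, by 0.94, and DACT1, a regulator of Wnt signalling, by 0.94. Their adjusted p in limma ran from 8.29e-05 for ZNF140 to 0.0128 for NRN1. All of them lay higher in the 5 arrays of experiment 1 than in any of the 10 others, which the rule for naming genes favours. The mean level of ZNF140 was 6.12 in experiment 1 and 5.18 in experiments 2 and 3, the latter below the lower quartile of cluster means (5.28). ZNF140 thus met the level filter only through experiment 1. KDM3A, a HIF-induced histone demethylase, completed the 12 and is described with the hypoxia genes.

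CCL1, a chemokine that recruits CCR8-bearing T cells, was the gene with the largest lower value in experiment 1. Its levels there were 7.33 untreated, 8.69 with low-dose, 9.11 with intermediate-dose and 9.55 with high-dose AA, and 7.95 with IFN-α, and elsewhere they ran from 8.95 over a median of 10.47 to 10.97. The ranges of the groups overlapped, and within each treatment experiment 1 was the lowest. The difference was -1.58 (SE 0.14, 2.99-fold, limma adjusted p = 0.000143), with -1.57 against experiment 2 and -1.58 against experiment 3. It was the only 1 of 17 measured chemokines to pass (5.88% lower, against 1.01% of all clusters). Without the high-dose AA array of experiment 3, 4 passed in a fit that called 8.14% of all clusters. Of the 17, 6 had mean levels below the lower quartile of all clusters.

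Coagulation factor V, F5, was 7.92, 7.94, 8.33, 8.77 and 8.09 in experiment 1 and 8.82 to 9.33 (median 9.26) elsewhere. The groups did not overlap, and the difference was -0.97 (SE 0.13, limma adjusted p = 0.00164). SULF2, an extracellular enzyme that trims heparan sulfate, was 8.58, 8.77, 8.95, 9.35 and 8.65 against 9.62 to 9.94 (median 9.72). It differed by -0.88 (SE 0.10, limma adjusted p = 0.000575), again without overlap. CLDN1, a tight-junction protein, was 9.53, 9.70, 10.01, 10.38 and 9.85 against 10.52 to 10.95 (median 10.75). Its difference was -0.83 (SE 0.09, limma adjusted p = 0.000529). In experiment 1, F5, SULF2 and CLDN1 rose from untreated cells to high-dose AA, so each difference is an average over treatments. The limma test of dependence on treatment gave unadjusted p of 0.0017 for CCL1, 0.0022 for F5, 0.0093 for SULF2 and 0.0091 for CLDN1. Their adjusted p was 0.985 each.

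The other protein-coding genes among the 12 with the largest lower differences have varied roles. PLA2G7, a lipoprotein-associated phospholipase, differed by -0.73, PLPPR1, a membrane protein related to lipid phosphatases, by -0.73, the tetraspanin TSPAN11 by -0.76, the matrix protein SPARC by -0.63 and the endocytic adaptor DAB2 by -0.60. The late cornified envelope genes LCE1B (-0.84) and LCE1C (-0.60), known from skin, were also lower, and as near-identical neighbours they are uncertain one by one. Limma adjusted p for these 7 genes ran from 8.29e-05 to 0.00505. POSTN and SPARC, both matrix proteins, thus differed in opposite directions.

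**Figure D2:**
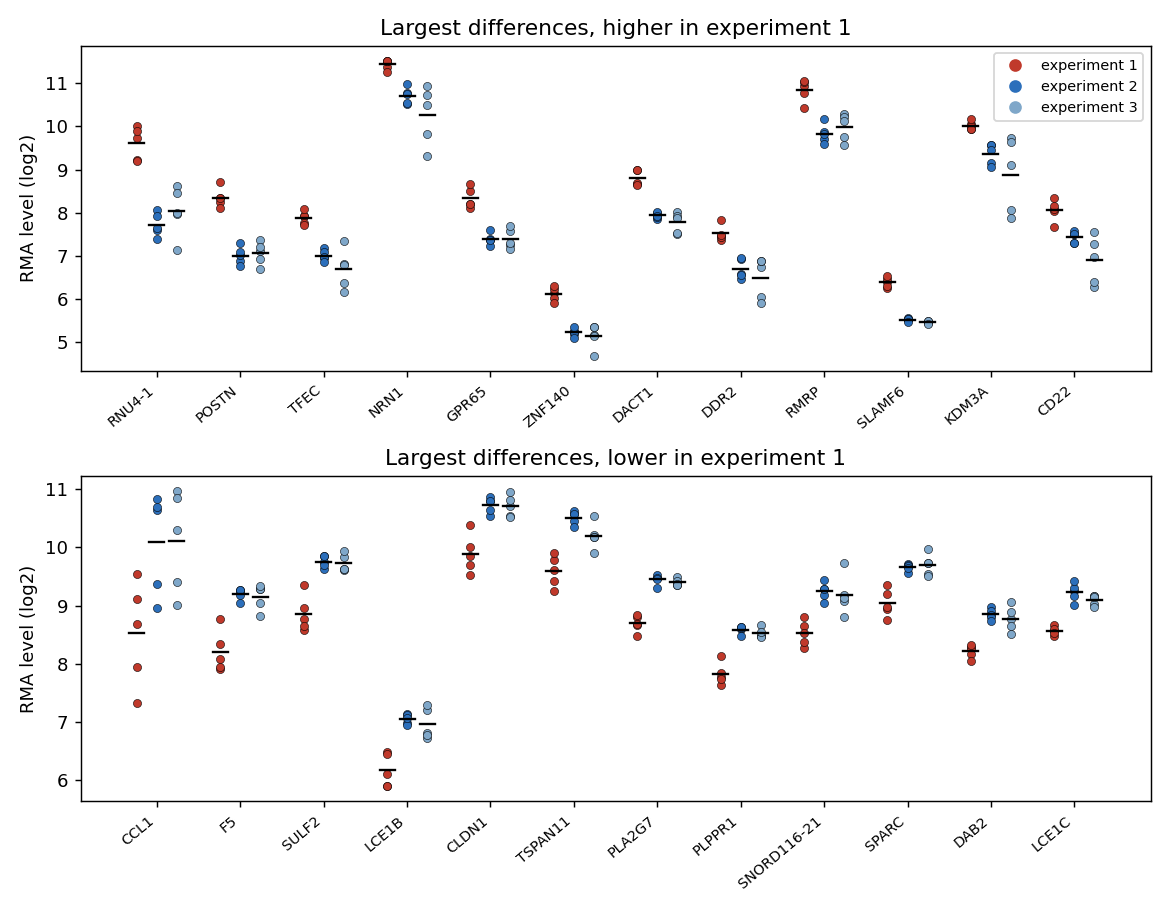
Levels (RMA log2) of the 12 genes with the largest higher and the 12 with the largest lower difference in experiment 1. They were taken among called clusters with 1 symbol, a mean above the lower quartile and 10 of 10 differences of 1 sign. Each point is 1 array, 5 per experiment, and the short line is the mean of an experiment. Experiment 1 stands apart from experiments 2 and 3 for nearly all of these genes, which that choice favours. Ranges overlap for CCL1 (7.33 to 9.55 against 8.95 to 10.97) and SNORD116-21 (8.27 to 8.81 against 8.80 to 9.73).

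Genes of cholesterol synthesis and uptake were higher in experiment 1 as a group. All 19 measured members had a positive difference, against 47.3% of all clusters. Of the 19, 14 passed (73.7%, against 3.45% of all clusters called higher), and the list median was 0.45 against -0.01 over all clusters. HMGCS1, which makes HMG-CoA for the mevalonate pathway, was 12.34 untreated, 12.21 with low-dose, 12.24 with intermediate-dose and 12.17 with high-dose AA, and 12.42 with IFN-α in experiment 1. In the other 10 arrays it ran from 11.20 over a median of 11.67 to 12.02, below all 5, and the difference was 0.66 (SE 0.08, limma adjusted p = 0.000663). MVK, mevalonate kinase, was 9.25, 9.42, 9.16, 9.23 and 9.37 against 7.80 to 8.94 (median 8.69), a difference of 0.68 (SE 0.13, limma adjusted p = 0.012).

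Members from early and late steps passed. Early enzymes were ACAT2 (0.68), MVD (0.64), IDI1 (0.50) and FDPS (0.64), which build isoprenoid units. The later ones were SQLE (0.44), MSMO1 (0.42), NSDHL (0.32), EBP (0.45), SC5D (0.31) and DHCR7 (0.63), which oxidize squalene and finish the sterol. The regulators INSIG1, which holds SREBP in the endoplasmic reticulum (0.64), and SREBF2, the gene of the sterol-sensing factor itself (0.40), passed as well. CYP51A1 had the largest difference of the list (0.70) but did not pass (limma adjusted p = 0.0546), nor did LSS (0.35), TM7SF2 (0.24), STARD4 (0.21) or PMVK (0.10).

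Enzymes of fatty acid synthesis moved likewise, with 7 of 12 measured members called higher (58.3%, against 3.45% of all clusters), 0 lower and a median of 0.37. SCD, which introduces the double bond of oleic acid, was 12.52, 12.60, 12.45, 12.28 and 12.64 in experiment 1 and 11.09 to 12.14 (median 11.90) elsewhere. It lay higher in all 5 arrays than in the other 10, by 0.71 (SE 0.13, limma adjusted p = 0.00862). ACACA (0.44), ACLY (0.39) and FASN (0.41), the enzymes that lead from citrate to palmitate, passed, as did ELOVL5 (0.29), ELOVL6 (0.44) and FADS1 (0.35), which lengthen and desaturate the chain. SREBF1 did not (0.39, limma adjusted p = 0.0533).

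Both lipid lists were higher in experiment 1 against either other experiment. The median of the cholesterol list was 0.41 against experiment 2 and 0.54 against experiment 3, and that of the fatty acid list 0.27 and 0.45. In untreated cells alone the cholesterol list differed by 0.32 from experiment 2 and 0.20 from experiment 3. Without the high-dose AA array of experiment 3, 16 cholesterol and 8 fatty acid members passed, and with experiment as a random block 9 and 6 did. Without the IFN-α arrays 5 and 3 passed, and with experiment 1 against experiment 3 alone 0 of both. Over all 28926 clusters, the fit without the high-dose array called 2355 and that with the random block 837, against 1290 in the main fit. The fit without IFN-α called 360 and that of experiments 1 and 3 only 65, so fewer calls in a list do not show a smaller difference.

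Hypoxia-response genes had as high a median (0.45) but were less even. Of 23 measured members 21 had a positive difference, against 47.3% of all clusters. Of the 23, 6 were called higher (26.1%, against 3.45% of all clusters) and 0 lower (against 1.01%). KDM3A was 10.05 untreated, 10.01 with low-dose, 9.93 with intermediate-dose and 9.93 with high-dose AA, and 10.16 with IFN-α in experiment 1. In experiment 2 it was 9.58, 9.14, 9.58, 9.07 and 9.46, and in experiment 3 it was 9.72, 8.06, 9.10, 7.89 and 9.63. Experiment 1 was thus nearly flat, and the lowest values were those of low-dose and high-dose AA in experiment 3. The difference was 0.89 (SE 0.22, limma adjusted p = 0.0404), and with experiment as a random block it no longer passed (limma adjusted p = 0.0682).

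P4HA1, a collagen prolyl hydroxylase, was 10.92, 10.79, 10.74, 10.73 and 11.09 in experiment 1 and 9.43 to 10.74 (median 10.29) elsewhere. The ranges met at 10.73 and 10.74, and the difference was 0.67 (SE 0.13, limma adjusted p = 0.0121). EGLN1, the oxygen-sensing hydroxylase that marks HIF (0.53), the glucose transporter gene SLC2A3 (0.51), FAM162A, a mitochondrial protein (0.45), and ERO1A, an oxidase of the endoplasmic reticulum (0.30), were the other members called. BNIP3L (0.72), DDIT4 (0.84), PFKFB4 (0.76), BNIP3 (0.58), PDK1 (0.54) and VEGFA (0.32) did not pass, with limma adjusted p from 0.107 to 0.21, and ADM (-0.20) and NDRG1 (-0.03) had the opposite sign. Of 16 glycolysis genes 15 had a positive difference with a median of 0.18, and 0 passed in limma, with a smallest adjusted p of 0.0581. Without the high-dose AA array of experiment 3, 5 were called, in a fit that called 8.14% of all clusters.

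The median of the hypoxia list varied between treatments. In untreated cells its median difference was 0.06 against experiment 2 and 0.00 against experiment 3. With low-dose AA the 2 values were 0.47 and 0.99, with intermediate-dose AA 0.17 and 0.53, with high-dose AA 0.33 and 1.01, and with IFN-α 0.40 and 0.43. Its mean level was 9.44 in untreated cells of experiments 1 and 3 alike, whereas in experiment 3 it was 8.58 with low-dose and 8.26 with high-dose AA. These are single arrays, and no test of a list was made. Without the high-dose AA array of experiment 3, 11 members passed, with experiment as a random block 5, and without the IFN-α arrays 0. Over all 28926 clusters these fits called 2355, 837 and 360, against 1290 in the main fit.

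**Figure D3:**
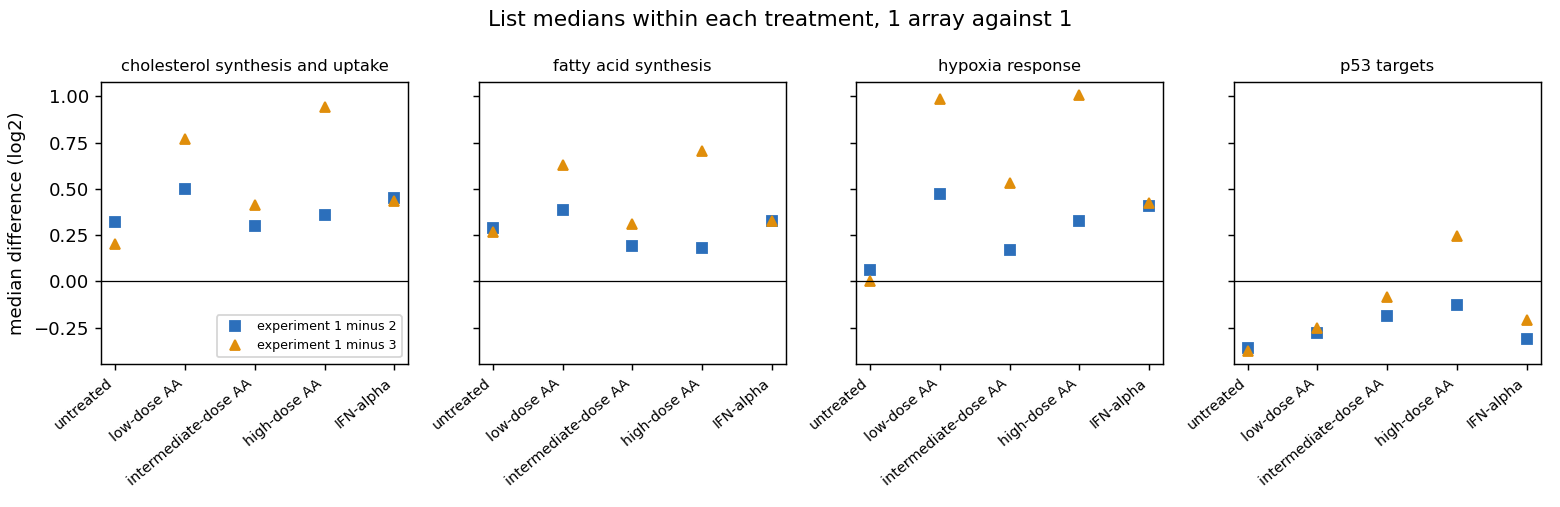
Median difference of the members of 4 gene lists (log2) between the array of experiment 1 and the array of experiment 2 (squares) or 3 (triangles) with the same treatment. The cholesterol and fatty acid lists lie above 0 in all 5 treatments, the hypoxia list starts at 0.06 and 0.00 in untreated cells, and the p53 list lies below 0 except for high-dose AA against experiment 3 (0.25).

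The promoters of the called hypoxia genes are shown because HIF is known to bind sites built on the letters ACGTG. In RefSeq sequences (GRCh38.p14) from 250 bases before to 50 after the start of each gene, ACGTG on either strand was present in 5900 of 27305 genes (21.6%), in 8 of the 17 hypoxia members matched (47.1%) and in 4 of the 5 called members matched. It was present in 4 of 17 matched cholesterol members (23.5%). The 4 called members with a match upstream of the start are printed on the gene strand, with the 5 letters of the match, as they read on that strand, in capitals.
EGLN1, chr1:231422288-231422340, minus strand: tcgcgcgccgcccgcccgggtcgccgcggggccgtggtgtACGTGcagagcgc
ERO1A, chr14:52695628-52695712, minus strand: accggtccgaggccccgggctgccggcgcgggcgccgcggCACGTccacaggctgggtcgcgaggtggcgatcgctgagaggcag
FAM162A, chr3:122384058-122384142, plus strand: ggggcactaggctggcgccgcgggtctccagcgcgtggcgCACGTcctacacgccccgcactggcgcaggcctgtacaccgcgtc
P4HA1, chr10:73096908-73096992, minus strand: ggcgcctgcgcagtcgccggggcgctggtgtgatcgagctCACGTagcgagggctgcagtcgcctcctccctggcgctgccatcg
The sterol-element letters TCACNCCAC were present in 313 of the 27305 genes (1.15%) and in 1 of 17 matched cholesterol members, SREBF2. Such a match is a description of the letters and not a measured site.

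Several targets of p53 were lower in experiment 1. Of 21 measured members 19 had a negative difference, 5 were called lower and 1 higher (23.8% lower, against 1.01% of all clusters), with a median of -0.20. RRM2B, a ribonucleotide reductase subunit for DNA repair, was 9.02, 9.07, 9.27, 9.56 and 9.21 in experiment 1 and stayed between 9.70 and 9.82 (median 9.76) elsewhere. The groups did not overlap, and the difference was -0.54 (SE 0.07, limma adjusted p = 0.00135). SESN1, a stress-induced inhibitor of mTORC1, was 7.36, 7.34, 7.46, 7.83 and 7.29 against 7.84 to 8.09 (median 8.00), a difference of -0.52 (SE 0.07, limma adjusted p = 0.00164).

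MDM2, the ubiquitin ligase that degrades p53 (-0.26), DDB2, a DNA damage sensor (-0.25), and TRIAP1, a mitochondrial inhibitor of apoptosis (-0.24), were also lower. CCNG1, cyclin G1, differed the other way (0.20, limma adjusted p = 0.0377). CDKN1A, the cell cycle inhibitor p21, differed by -0.31 and did not pass (limma adjusted p = 0.219), nor did BAX (-0.18) or FAS (0.01). In both RRM2B and SESN1 the high-dose AA array of experiment 1 came closest to the other experiments. Against the mean of the other experiments, the median of the list was -0.37 in untreated cells, -0.27 with low-dose, -0.11 with intermediate-dose and 0.01 with high-dose AA, and -0.27 with IFN-α. Without the high-dose AA array of experiment 3, 13 members passed, with the random block 4, and without the IFN-α arrays 2. Over all 28926 clusters these fits called 2355, 837 and 360, against 1290 in the main fit.

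Of 29 measured genes of T-cell activation and HTLV-1 receptors, 3 were higher (10.3%, against 3.45% of all clusters) and 0 lower, with a list median of -0.03. When the high-dose AA array of experiment 3 was left out, 5 passed, in a fit that called 8.14% of all clusters. FOXP3, the transcription factor of regulatory T cells, was 7.71, 8.01, 7.81, 7.81 and 7.99 in experiment 1 and 7.13 to 7.44 (median 7.30) elsewhere, without overlap. It was 0.57 higher (SE 0.06, limma adjusted p = 0.000317). CTLA4, an inhibitory receptor that FOXP3 is known to regulate, was 8.57, 8.67, 8.61, 8.62 and 8.87 against 7.16 to 8.28 (median 8.01), also without overlap. It was 0.75 higher (SE 0.13, limma adjusted p = 0.0056), and the co-stimulatory receptor TNFRSF9 was 0.28 higher.

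Of 21 genes of the T-cell receptor complex and its signalling, the adhesion receptor CD2 (0.30), the kinase FYN (0.37) and the adaptor LAT (0.18) were higher (14.3%, against 3.45% of all clusters). With experiment as a random block FYN (limma adjusted p = 0.0590) and LAT (0.0836) no longer passed. Without the high-dose AA array of experiment 3, 5 members passed, in a fit that called 8.14% of all clusters. Among 10 measured MHC class II genes all had a positive difference (median 0.20) and 3 passed (30.0%, against 3.45% of all clusters called higher). These were HLA-DOA (0.36), HLA-DQA1 (0.20) and HLA-DPA1 (0.20), of which HLA-DPA1 was lost with the random block (limma adjusted p = 0.0534). As alleles and paralogs of this family are alike, single members are uncertain.

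Of 28 measured cytokine genes, 4 were lower (14.3%, against 1.01% of all clusters) and 1 higher (3.57%, against 3.45%). TNF (-0.51), TNFSF8, the ligand of CD30 (-0.38), CSF1, the macrophage growth factor (-0.32), and TNFSF14, a ligand of HVEM (-0.25), were lower, and LIF, an interleukin-6 family cytokine, was 0.49 higher. Among 27 immediate early genes 1 was higher (3.70%, against 3.45% of all clusters) and 3 lower (11.1%, against 1.01%). NR4A2, an orphan nuclear receptor, was 8.78, 9.10, 8.89, 8.86 and 9.23 against 7.70 to 8.40 (median 8.20). It was 0.83 higher (SE 0.10, limma adjusted p = 0.000663), whereas the AP-1 subunit genes FOSB (-0.35) and FOSL1 (-0.28) and the zinc-finger factor EGR3 (-0.28) were lower. EGR3 did not pass with the random block (limma adjusted p = 0.0772). Of 23 NF-kB targets, the family's own NFKBIE (0.31), REL (0.26) and RELB (0.23) were higher (13%, against 3.45% of all clusters) and TNF lower (4.35%, against 1.01%). RELB was lost with the random block (limma adjusted p = 0.0723). Without the high-dose AA array of experiment 3, 8 of the NF-kB targets passed, in a fit that called 8.14% of all clusters.

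Of 43 measured interferon-stimulated genes, 3 were higher (6.98%) and 1 lower (2.33%) between the dates, against 3.45% and 1.01% of all clusters. HERC6, an interferon-induced ligase, was 6.54, 6.48, 6.66 and 6.83 in the 4 cultures of experiment 1 without IFN-α and 8.63 with it. The corresponding values were 6.14, 6.11, 5.90 and 6.02, and 7.85, in experiment 2, and 6.25, 6.11, 5.82 and 6.02, and 7.82, in experiment 3. Experiment 1 was higher at every treatment, by 0.62 on average (SE 0.07, limma adjusted p = 0.000663). SAMD9, an antiviral factor (0.58), and IFIT5, an RNA-binding member of the IFIT family (0.28), were higher, and TRIM22, an antiviral ligase, differed by -0.54.

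Of 42 measured ribosomal protein genes 39 had a positive difference, with a median of 0.12, but only 5 passed, RPL11 (0.35), RPL10A (0.29), RPL29 (0.27), RPL24 (0.25) and RPS25 (0.19), or 11.9% against 3.45% of all clusters. The count was 9 without the high-dose AA array of experiment 3, in a fit that called 8.14% of all clusters. The mean level of the list lay between 11.62 and 11.63 in the 5 arrays of experiment 1 and between 11.35 and 11.55 in the other 10, so the 2 sets did not overlap. Mean levels of the cholesterol, fatty acid and MHC class II lists were also higher without overlap, and that of the cytokine list was lower without overlap. Of 30 replication-dependent histone genes 5 were higher (16.7%, against 3.45% of all clusters) and 0 lower. The 5 were led by H3C11 (0.80) and H4C13 (0.44), and 3 passed with the random block. These genes have near-identical copies and are uncertain one by one.

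In limma, 0 of 30 genes of G1/S and DNA replication and 0 of 28 genes of G2/M and mitosis passed, with medians of 0.03 and 0.00 and smallest adjusted p of 0.0747 and 0.0629. Nucleolar ribosome biogenesis (0 of 24), NRF2 and antioxidant genes (0 of 19), metallothioneins (0 of 10) and autophagy and lysosome genes (0 of 20) had no call either. In the fit without the high-dose AA array of experiment 3, which called 8.14% of all clusters, 1 gene of G1/S, 2 of G2/M, 1 of nucleolar biogenesis and 5 of autophagy and lysosome passed, and 0 of the NRF2 and metallothionein lists did. Of 9 iron genes 2 were higher (22.2%, against 3.45% of all clusters), the transferrin receptor TFRC (0.34) and ACO1, the iron-sensing aconitase (0.38). Only 4 of the 9 had a positive difference, and the list median was -0.04. Of 20 endoplasmic reticulum genes 2 were lower, the chaperone DNAJB11 (-0.29) and HERPUD1 (-0.21), which assists degradation (10.0%, against 1.01% of all clusters), and 6 passed without the high-dose AA array of experiment 3.

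The pairs of experiments were also set against each other in a model with 3 experiment levels, in which both comparisons with experiment 1 share its arrays. Experiment 1 differed from experiment 2 in 960 clusters (3.32%) and from experiment 3 in 1200 (4.15%). Experiments 2 and 3, which share a date tag, differed in 0 clusters at an adjusted p under 0.05 in limma (0%), with a smallest adjusted p of 0.244. Unadjusted, 109 clusters had p under 0.001 (0.377%), against 28.9 expected if none differed, and 4010 had p under 0.05. Passing in 0 clusters does not show that experiments 2 and 3 were alike. The median difference of experiment 2 from experiment 3 was 0.33 for the hypoxia list, 0.20 for the cholesterol list and 0.13 for the fatty acid list, in arrays that include the high-dose AA array of experiment 3.

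**Figure D4:**
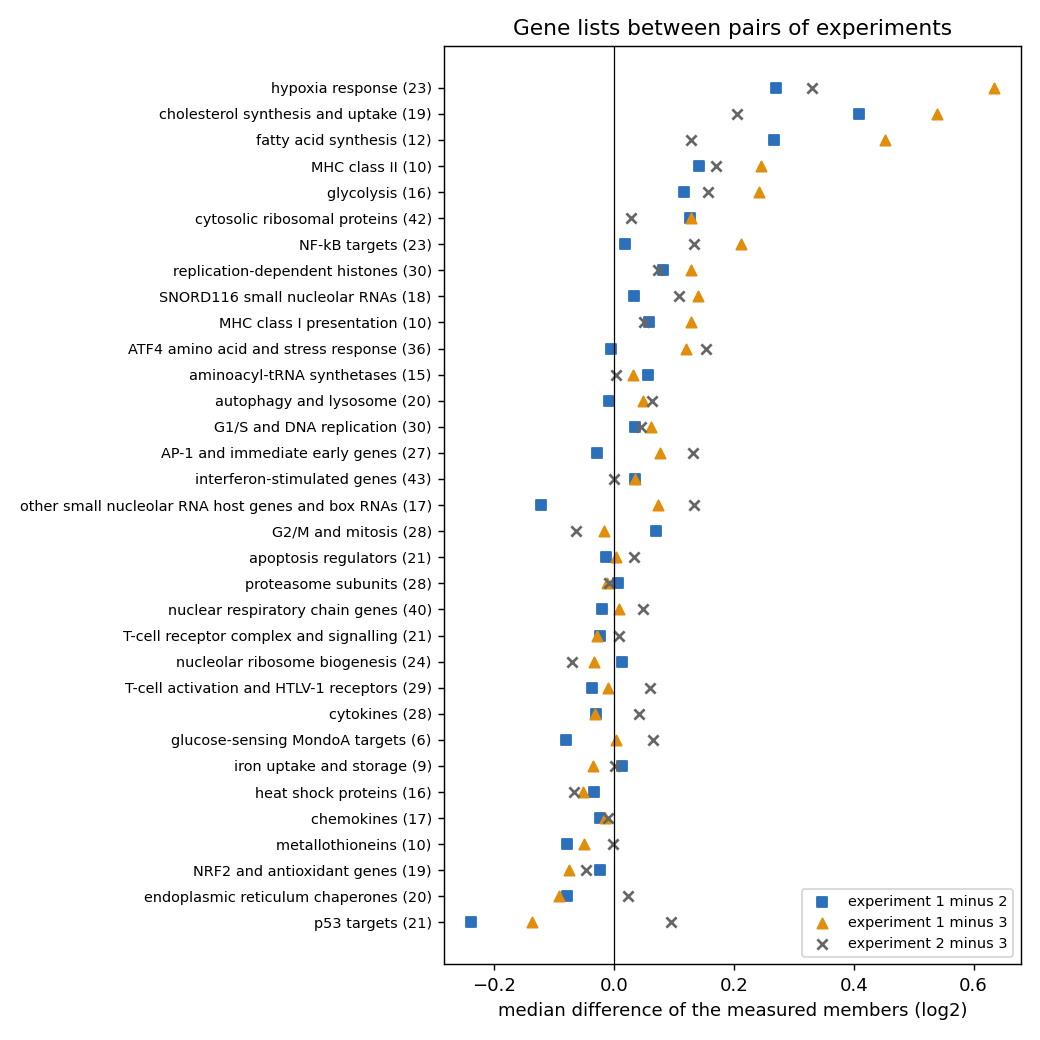
Median difference (log2) of the measured members of 33 gene lists between each pair of experiments, with the number of members in brackets; squares and triangles share the arrays of experiment 1. The hypoxia, cholesterol and fatty acid lists are highest for experiment 1 against both others, the p53 list is lowest, and experiment 2 minus 3 reaches 0.33 for the hypoxia list.

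Whether the date difference depended on the treatment was asked with an interaction of treatment and date. It passed for 0 clusters at an adjusted p under 0.05 (0%) in limma, for 19 at an unadjusted p under 0.001 (0.0657%) and for 1126 at an unadjusted p under 0.05, with 5 residual degrees of freedom and a smallest adjusted p of 0.867. The 5 genes with the smallest p were LOC399975, DPPA3, ADAM20P1, ZNF701 and CIDEC, with limma adjusted p of 0.867 for the first and 0.985 for the others. A p that misses the threshold does not show that the date difference was the same in each treatment. How precise the values are is limited by the small number of arrays.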

How the data were processed

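The deposited values are log2 expression levels that the authors computed from the arrays by RMA, in the package xps per the study's methods (background subtraction, quantile scaling across arrays, and a summary over the probes of each cluster), and they were used as deposited. Of 28926 clusters, 19310 carry 1 gene symbol in the array annotation, 1752 several and 7864 none, and 546 repeat the values of another cluster. limma 3.58.1 (R 4.3.3) was fitted to all clusters with treatment and date as terms (9 residual and 3.94 prior degrees of freedom) and Benjamini-Hochberg adjustment, and two-sided. Experiments were taken from the title tags; treatment is the block that matches arrays. A gene of a list was read from its cluster with the highest mean. Named genes were up to 12 per direction with the largest difference among called clusters with 1 symbol, a mean above the lower quartile (5.28) and 10 of 10 differences of 1 sign (718 genes higher and 169 lower qualified), plus, in each list, the called members ranked by p (at most 4), the 5 smallest interaction p, and defining markers; further list members are named beside their list's counts after their values were seen. The members and lists were chosen with earlier results of these data known. Scripts were tested on simulated data. Alternatives comprised normalization, filters, variance models, array weights and leaving out arrays or experiments. Withheld items are not reported here.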

Additional observations from a re-analysis of the deposited data

Results flagged for a closer look

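Each of the 24 named genes and 39 gene lists was checked, within the 5 arrays of each experiment and after the mean of each treatment was removed, for an array whose gap to its nearest neighbour was large against the range of the group (Dixon's ratio above 0.71). Of 189 such checks 20 stood out, and chance alone flags about 1 in 20. The high-dose AA array of experiment 3 was the far one for 7 lists: G1/S and DNA replication (0.776), nucleolar ribosome biogenesis (0.764), aminoacyl-tRNA synthetases (0.785), endoplasmic reticulum chaperones (0.746), heat shock proteins (0.787), MHC class I presentation (0.799) and proteasome subunits (0.74), and was lower than the other arrays in all of them. In experiment 1 the high-dose AA array stood apart for G1/S and DNA replication (0.761), aminoacyl-tRNA synthetases (0.717), MHC class I presentation (0.711) and the markers of epithelial cells (0.768) and fibroblasts (0.888). As the treatment mean of only 3 arrays is removed, a far array shifts the centred values of the matching arrays of the other experiments the other way.

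Among named genes, RNU4-1 stood apart in the untreated array of experiment 1 (0.948), CD22 in its low-dose AA array (0.714), and DDR2 in the IFN-α array of experiment 2 (0.842). The high-dose AA array of experiment 2 was far from the others for F5 (0.795), PLPPR1 (0.873) and SPARC (0.76). The interferon-stimulated list stood apart in the IFN-α array of experiment 2 (0.797), and the list of T-cell activation and HTLV-1 receptors in the untreated array of experiment 3 (0.751). What lies behind any of these was not tested.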

How the results depend on the processing

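The count of clusters that differed between the dates depended on the arrays and the model. Against 1290, it was 2355 without the high-dose AA array of experiment 3, 2370 with experiments 1 and 2 only, 65 with experiments 1 and 3 only, 360 without the 3 IFN-α arrays, 837 with experiment as a random block, 3043 with array weights, whose estimation stopped short of convergence, and 405 at an adjusted p under 0.01. Leaving out each array in turn gave 516 to 2355, and the count moved by over 1.5 times without the low-dose (524), intermediate-dose (736), high-dose (690) or IFN-α array (516) of experiment 1, the untreated (814) or IFN-α array (840) of experiment 2, and the high-dose array of experiment 3 (2355). With no replicate block, that is without the pairing of arrays by treatment, 1270 passed. Cyclic loess called 1656, of which 66.4% were higher against 77.4%, and the share was 66.8% without the high-dose array of experiment 3. From those 14 arrays, leaving out 1 more gave 1124 to 2508. Experiment 1 against experiment 2 called 960, 2634 without the high-dose array of experiment 3, 1533 with cyclic loess and 219 to 2634 leaving out each array. Experiment 1 against experiment 3 called 1200, and 416 to 2137 leaving out each array. Experiment 2 against experiment 3 gave 0 to 2 leaving out each array. The interaction gave 0 to 29 leaving out each array of experiments 2 and 3, and was not refitted without an array of experiment 1. At an unadjusted p under 0.001 in limma these 2 comparisons gave 109 and 19. The iron list's median of -0.04 became 0.014 with experiments 1 and 2 only and 0.0015 without IFN-α. Of 88 named gene clusters, all kept their sign under 6 alternatives, and 88 still passed without the high-dose array of experiment 3, 87 with cyclic loess, 74 with the random block, 82 with experiments 1 and 2 only, 44 without IFN-α and 15 with experiments 1 and 3 only. The 88 were chosen because they passed in these same arrays, so kept signs and calls are a description and no independent support. All 1290 called clusters passed without the high-dose array of experiment 3, the 88 among them. The cause of the changes in counts and medians was not tested. The counts for lists and the added leave-one-out fits were chosen after seeing the data.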
